A study of Homo sapiens with 4 samples.

Results

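Cadherins are calcium-dependent adhesion proteins that join neighbouring cells through repeated extracellular domains. The members described here are 84 genes of the 17472 in the deposited table, taken by symbol: numbered cadherins, CDHR genes, protocadherins, FAT, Dachsous (DCHS), CELSR, desmocollins (DSC) and desmogleins (DSG). E-cadherin (CDH1), N-cadherin (CDH2) and PCDH11Y were left out by that rule, and 36 further symbols of the family in the reference name table were not analysed here. The rule used no measured value, though the members were chosen with earlier results of these data known.

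RNA came from H1, a long-established human embryonic stem cell line, grown in E8, a defined medium with insulin, FGF2 and TGF-beta. The WT group is 2 libraries of H1 cells labelled WT. The MEK5DD group is 2 libraries of H1 cells that carry MAP2K5 (MEK5), the kinase upstream of ERK5, with residues changed to aspartate. The labels describe 1 such line, made with a lentivirus and puromycin, and no line made with a control virus enters here, so the effect of MEK5DD and those of delivery, selection and the subline cannot be told apart. The comparison asks which transcripts differ between the MEK5DD line and WT cells.

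Cadherins work through different partners. Classical and desmosomal cadherins bind catenins or plakoglobin inside the cell and so anchor actin or intermediate filaments. FAT, Dachsous and CELSR are very large atypical cadherins known for planar cell polarity and growth control. The clustered protocadherins lie in tandem as alpha, beta and gamma groups, and neurons choose among their promoters to give each cell its own combination of surface proteins. In the alpha and gamma groups each gene has its own first exon, spliced to constant exons that all genes of the group share.

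As a check of the labels, the normalised read count of MAP2K5 was 344 and 315 in WT and 3382 and 3558 in MEK5DD. Recovered reads ranged from 14908486 to 17628945 per library. All 11 markers of pluripotent stem cells that were looked up were listed, with summed values of 159633 to 167211 over the 4 libraries. Of these NANOG was called higher and SOX2 lower, with limma adjusted p of 0.0117 and 0.0437. That is 18.2% of the 11, beside 14.2% of all genes tested. The labels do not say whether libraries of a group came from separate cultures, so p-values cover only library-to-library spread, which may be technical. In bulk RNA, fewer cells of a type and less RNA per cell cannot be told apart.

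Most promoters of clustered protocadherins hold a short element. The windows shown here belong to the called genes of the clusters and to genes of the same clusters that were not called. Each line gives 32 bases on the gene's strand, 5′ to 3′, from RefSeq promoter windows of GRCh38.p14, with the core CGCT in capitals.
PCDHA10 (not called, chr5:140855839-140855870, plus strand): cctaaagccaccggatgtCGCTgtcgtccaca
PCDHAC1 (higher in MEK5DD, chr5:140926218-140926249, plus strand): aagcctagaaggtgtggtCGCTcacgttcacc
PCDHB2 (lower, chr5:141094542-141094573, plus strand): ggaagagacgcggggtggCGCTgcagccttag
PCDHB5 (not called, chr5:141135177-141135208, plus strand): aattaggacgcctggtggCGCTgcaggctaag
PCDHGB4 (lower, chr5:141387615-141387646, plus strand): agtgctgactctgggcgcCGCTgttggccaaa
PCDHGB5 (not called, chr5:141397861-141397892, plus strand): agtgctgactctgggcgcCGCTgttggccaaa
PCDHGA10 (lower, chr5:141412929-141412960, plus strand): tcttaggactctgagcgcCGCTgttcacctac
PCDHGA11 (higher, chr5:141420970-141421001, plus strand): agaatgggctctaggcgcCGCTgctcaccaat

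Promoter windows of 250 bases before to 50 after the start were found for 68 of the 84 members and 42 of the 47 clustered genes. The words GATGTCGCT, GGTGGCGCT and GCGNCGCTG, chosen after the promoters were read, were searched on both strands, and each holds the core CGCT, which was searched as well. The first was in 9 of 13 alpha promoters (69.2%) and in 0.128% of the promoters of 27305 genes. The second was in 11 of 12 beta promoters (91.7%) and in 0.619% of all, and the third in 12 of 17 gamma promoters (70.6%) and in 4.43% of all. None of the 3 words was in any of the 26 promoters of members outside the clusters. The core CGCT alone was in 97.6% of clustered promoters, 88.5% of the other members' and 71.9% of all. PCDHAC1 held no exact alpha word, and the window printed for it is the one most like the alpha majority sequence, with 13 of 32 bases equal.

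Members outside the clusters spanned a wide range of levels. Per kilobase of exon, the WT means were 694 for the desmosomal DSG2, 661 for the classical P-cadherin gene CDH3, 441 for PCDH1 and 400 for FAT1, in normalised read counts. PCDH18 (110), DSC2 (106), CELSR2 (95.1), FAT3 (88.9) and CDH24 (69.2) followed. At the low end 16 of the 84 members stayed under the filter of 10 in at least 2 libraries and were not tested. Their means ran from 3.11 to 9.87, with 1 to 15 recovered reads in a library.

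**Figure D1:**
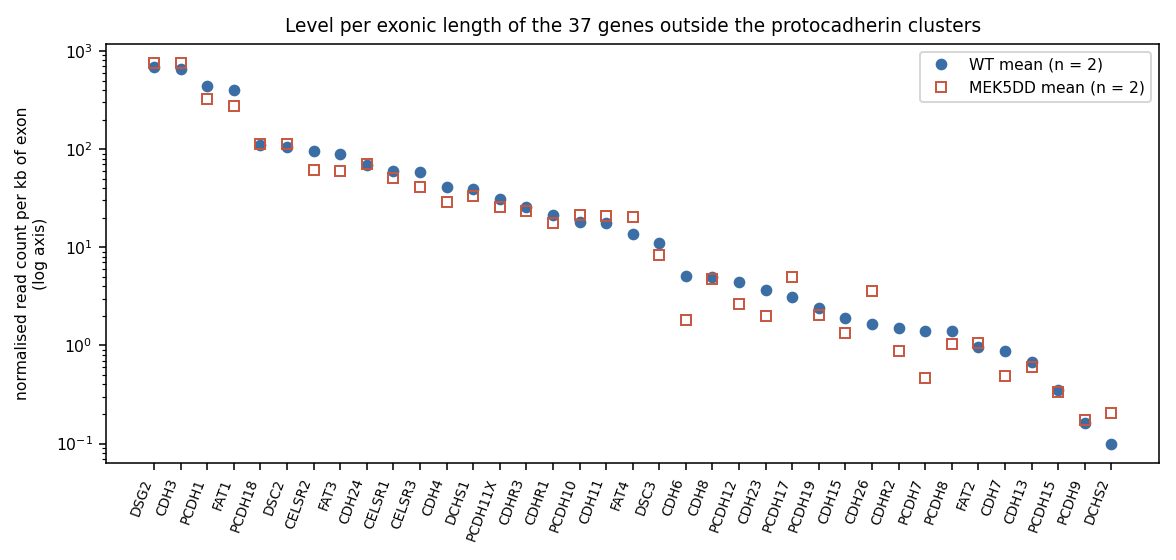
Mean normalised read count per kilobase of exon (log axis) for the 37 members outside the protocadherin clusters, in WT (circles) and MEK5DD (squares), n = 2 libraries each, ordered by WT level. DSG2, CDH3, PCDH1 and FAT1 stand above the rest, at 400 to 694 in WT.

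Across the family, calls were mostly lower in MEK5DD cells. Of the 68 tested members, 11 fell and 3 rose by limma with Benjamini-Hochberg adjustment over 15721 genes at a threshold of 0.05. That is 16.2% lower and 4.41% higher, beside 6.47% and 7.69% of all genes tested, and 20.6% called in either direction beside 14.2%. Of the 29 tested members outside the protocadherin clusters 8 fell (27.6%) and 1 rose (3.45%). Among the 39 tested clustered genes 3 fell (7.69%) and 2 rose (5.13%). The median log2 fold change was -0.22 over the tested members and -0.18 over all 84, beside -0.0023 over all genes tested. The groups did not overlap in 49 of 68 members (72.1%), beside 56.2% of all genes. The falls ran from 1.28-fold to 2.73-fold, and no call changed direction under any alternative run.

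Calls depended on the estimate of spread. Without limma's mean-variance trend 13 of the 14 lost their call, with adjusted p from 0.0617 (PCDHAC1) to 0.197 (FAT4), and CDH6 kept it. In fits that left out 1 library, 6 of 14 passed each time: CDH6, FAT1, FAT3, CELSR2, CELSR3 and PCDH1. The count of called members was 8 without WT replicate 1, 9 without WT replicate 2, and 24 without MEK5DD replicate 1 or without MEK5DD replicate 2, beside 14 with all. Such a fit leaves 1 library in a group and takes all spread from the other group. More calls without a MEK5DD library are therefore no added support. Within the MEK5DD pair, replicate 2 lay above replicate 1 in 64.7% of tested members and in 47.8% of all genes tested. The part of this in the calls was not tested.

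**Figure D2:**
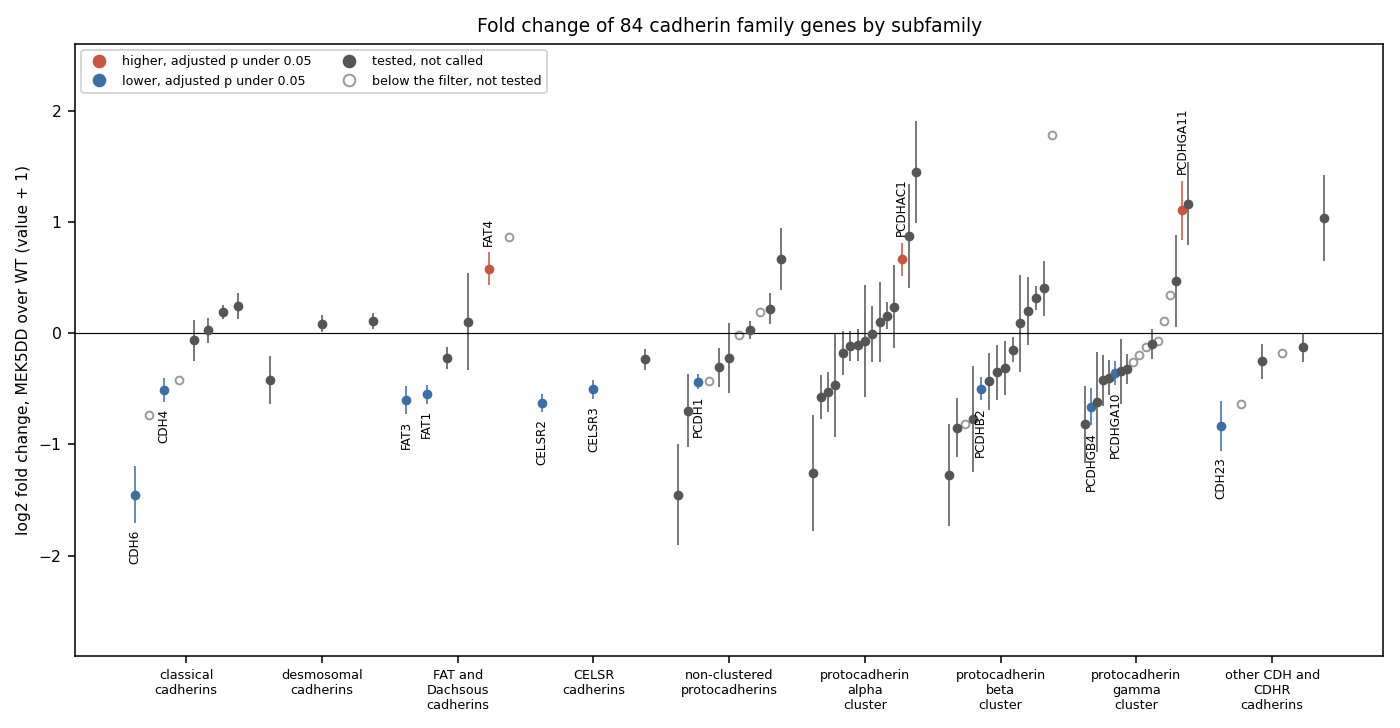
Log2 fold change of MEK5DD over WT, on the log2(value + 1) scale, for 84 members by subfamily; points are genes, bars are 1 standard error from limma, and open circles were below the filter. The 11 called falls lie between -0.36 and -1.45 and the 3 called rises between 0.58 and 1.10.

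The atypical cadherins of planar polarity gave the largest share of the fall in reads. Summed over the 6 FAT and Dachsous genes, the values were 8781 and 8891 in WT and 5593 and 6993 in MEK5DD, a mean 1.40-fold lower. FAT1 made up most of that fall, with means of 6465 in WT and 4434 in MEK5DD. FAT3 was the other called fall of the 6, and FAT4 rose. Over the 3 CELSR genes the sums were 2649 and 2855 in WT and 1915 and 2055 in MEK5DD, a mean 1.39-fold lower. With 2 libraries against 2, an exact permutation test of such a sum cannot go below p = 0.333, and the sums were not tested.

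FAT1, a giant cadherin that binds actin regulators, lies at chromosome 4, 186587783 to 186726722 (GRCh38). Its values were 6466 and 6464 in WT and 3996 and 4871 in MEK5DD. Both MEK5DD values lay below both WT values, and MEK5DD replicate 1 was the lowest. The change was 1.47-fold lower (log2 -0.55, SE 0.08, limma adjusted p = 0.000889).

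FAT3, a paralog known from retinal and neuronal development, had 1669 and 1757 in WT and 945 and 1346 in MEK5DD. The groups did not overlap, and MEK5DD replicate 1 was far below MEK5DD replicate 2. It fell 1.52-fold (log2 -0.60, SE 0.13, limma adjusted p = 0.00736), a call lost with DESeq2 (adjusted p = 0.147).

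FAT4, the receptor for Dachsous ligands, moved the other way. Its values were 201 and 247 in WT and 289 and 384 in MEK5DD, and every MEK5DD value was above every WT value. It rose 1.49-fold (log2 0.58, SE 0.15, limma adjusted p = 0.0217), but its adjusted p was 0.104 without WT replicate 1. DCHS1, which encodes a FAT4 ligand, was not called (log2 -0.22, SE 0.10, limma adjusted p = 0.165). FAT2 (mean 14.8) was not called, and DCHS2 (mean 3.11) was below the filter.

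CELSR proteins are seven-pass cadherins at the core of planar polarity. CELSR2, at chromosome 1, 109250019 to 109275750, had 1135 and 1214 in WT and 726 and 795 in MEK5DD, with no overlap. It fell 1.54-fold (log2 -0.63, SE 0.08, limma adjusted p = 0.000344). CELSR3 had 773 and 837 in WT and 586 and 548 in MEK5DD, again with no overlap, and fell 1.42-fold (log2 -0.50, SE 0.09, limma adjusted p = 0.00219). CELSR1 had 740 and 803 in WT and 602 and 712 in MEK5DD. The groups of CELSR1 did not overlap, yet it was not called (log2 -0.24, 95% interval -0.45 to -0.02, limma adjusted p = 0.134). With replicate number as a block it was called (limma adjusted p = 0.0397), but the labels name no shared origin.

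Other genes of planar polarity were taken from a list of 7 partners, all tested, of which 57.1% were called beside 14.2% of all genes. This list, like the other partner and marker lists, was made with earlier results of these data known, so its share is description only. VANGL1, a core polarity membrane protein gene, was called higher (log2 0.46, SE 0.08), and 3 were called lower. PRICKLE2, which encodes a cytoplasmic polarity protein, fell by 0.83 on the log2 scale, from 56.4 and 46.9 to 28.2 and 28.9. FJX1, the homolog of the fly four-jointed kinase that modifies FAT and Dachsous, fell by 0.81 on the log2 scale, from 100.4 and 90.6 to 69.1 and 41.9. Neither passed when WT replicate 1 was left out (adjusted p = 0.308 and 0.0812) or with DESeq2 (0.212 and 0.119). PRICKLE2 was lost without WT replicate 2 as well (adjusted p = 0.0849), and FJX1 without MEK5DD replicate 2 (adjusted p = 0.107) and after quantile normalisation (0.0513). The WNT receptor gene FZD6 was the other fall (log2 -0.44, SE 0.10).

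Of 6 classical cadherins tested, 0 rose and 2 fell, CDH6 and CDH4, 33.3% beside 6.47% of all genes called lower. CDH3, at chromosome 16, 68636189 to 68722616, had 4103 and 4144 in WT and 4946 and 4472 in MEK5DD. Both MEK5DD values were above both WT values. The change was 1.14-fold (log2 0.19, 95% interval 0.05 to 0.33) and was not called (limma adjusted p = 0.0779). With replicate number as a block it was called (limma adjusted p = 0.0160), but the labels name no shared origin. An exon of CDH3 overlaps the listed gene AC126773.2, and the strand setting of the counting was not given in the sources used here.

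CDH6, the K-cadherin gene of kidney and neural crest, had 62.5 and 62.5 in WT and 19.1 and 25.9 in MEK5DD. It was the largest called fall of the family, 2.73-fold (log2 -1.45, SE 0.26, limma adjusted p = 0.00263), and its level was low, 5.05 per kilobase in WT. CDH4, the R-cadherin gene, had 295 and 306 in WT and 207 and 214 in MEK5DD, with no overlap. It fell 1.42-fold (log2 -0.51, SE 0.11, limma adjusted p = 0.00901), which missed the threshold when WT replicate 2 was left out (adjusted p = 0.0790). CDH8, CDH11 and CDH24 were not called, with log2 fold changes of -0.06, 0.24 and 0.02. CDH7 and CDH15 were below the filter.

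Desmosomal cadherins anchor intermediate filaments at desmosomes. DSG2, at chromosome 18, 31498043 to 31549008, had 4297 and 4297 in WT and 4323 and 4977 in MEK5DD. MEK5DD replicate 1 lay just above the WT values and MEK5DD replicate 2 well above them. The log2 fold change was 0.11 (95% interval -0.05 to 0.27, limma adjusted p = 0.354). DSC2 had 1304 and 1344 in WT and 1326 and 1483 in MEK5DD, with overlap (log2 0.08, 95% interval -0.08 to 0.25, adjusted p = 0.531 from limma). In both genes MEK5DD replicate 2 was the higher of the pair, and a fit on it alone holds no spread within MEK5DD. DSC3, the least abundant of the 3, was not called (log2 -0.42, SE 0.22). An exon of DSG2 overlaps the listed antisense gene DSG2-AS1.

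Of 6 tested plakophilin and desmosome plaque genes, 3 rose and 0 fell, 50% beside 7.69% of all genes called higher. Their median log2 fold change was 0.36. The list was made with earlier results of these data known, so this share is description only. PKP3, a plakophilin, had 37.0 and 29.2 in WT and 92.7 and 76.7 in MEK5DD, a 2.52-fold rise (log2 1.33, SE 0.22, limma adjusted p = 0.00194). PERP, a desmosome-associated p53 target, rose 1.54-fold (log2 0.62, SE 0.07), from 1623 and 1587 to 2584 and 2359. PPL, the plakin periplakin, rose 1.54-fold as well, from 725 and 739 to 1105 and 1145. When limma ran without its trend, the adjusted p was 0.0504 for PKP3, 0.0591 for PERP and 0.0503 for PPL, so these calls were lost.

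Catenins showed calls both ways, 2 of 9 higher and 2 lower (median log2 fold change 0.00066), 44.4% beside 14.2% of all genes. CTNNA2 and CTNND2 encode catenins known from the nervous system. CTNNA2 fell 1.93-fold, from 122 and 151 to 57.2 and 85.7 (log2 -0.95, SE 0.21). CTNND2 fell 1.85-fold, from 134 and 161 to 74.5 and 83.7 (log2 -0.89, SE 0.16). The broadly expressed CTNND1 (p120) and JUP (plakoglobin) were called higher, by 0.34 and 0.42 on the log2 scale. CTNNB1 (beta-catenin) was not called (log2 -0.13, SE 0.06). Over all 47 tested partner genes, 7 rose and 9 fell, with a median log2 fold change of -0.04. That is 34.0% called in either direction beside 14.2% of all genes, on a list made with earlier results of these data known. This comparison is description and tests no excess. Without the mean-variance trend 1 of the 47 was called. Of the partners, the junction linkers gave 1 rise among 2 tested, the sheddases and gamma-secretase subunits 1 fall among 3, and other genes with cadherin repeats no call among 3.

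Non-clustered protocadherins signal through their cytoplasmic tails more than they hold cells together. PCDH1 was the most abundant of the 11, at chromosome 5, 141853111 to 141879246, beyond the clusters. Its values were 2622 and 2585 in WT and 1967 and 1885 in MEK5DD, with a narrow spread in both groups. It fell 1.35-fold (log2 -0.44, SE 0.06, limma adjusted p = 0.000895). PCDH18 had 728 and 747 in WT and 729 and 777 in MEK5DD, with overlap, and was not called (log2 0.03, 95% interval -0.15 to 0.21). PCDH7 had 17.6 and 16.7 in WT and 6.36 and 4.98 in MEK5DD, and its log2 fold change of -1.45 (SE 0.45) narrowly missed the threshold (limma adjusted p = 0.0512). PCDH11X had 351 and 375 in WT and 231 and 372 in MEK5DD, so only MEK5DD replicate 1 was low. Its near-identical copy on the Y chromosome can share its reads. PCDH10, PCDH12, PCDH17 and PCDH19 were not called, and PCDH8, PCDH9 and PCDH15 were below the filter. CYFIP2 encodes a subunit of the WAVE actin regulator that some protocadherin tails recruit. It was the 1 call among 8 tested protocadherin signalling genes, 12.5% beside 14.2% of all genes. CYFIP2 was 1.48-fold lower (log2 -0.56, SE 0.07).

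CDH23, known from the tip links of hair cells, had 59.0 and 77.1 in WT and 39.1 and 35.9 in MEK5DD, with no overlap. It fell 1.78-fold (log2 -0.83, SE 0.23, limma adjusted p = 0.0283), which missed the threshold when WT replicate 2 was left out (adjusted p = 0.284) and with DESeq2 (adjusted p = 0.138). CDHR1 and CDHR3, at means of 149 and 174, were not called. CDH26 had 9.69 and 9.37 in WT and 23.6 and 17.9 in MEK5DD and missed the threshold (log2 1.04, SE 0.39, limma adjusted p = 0.0999).

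**Figure D3:**
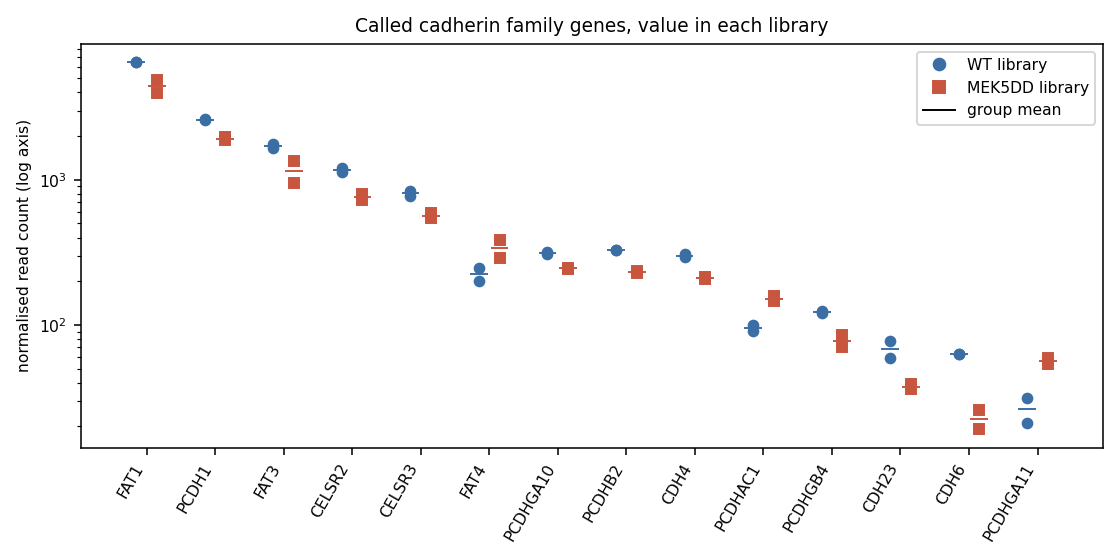
Normalised read count (log axis) of the 14 called members in each WT library (circles) and each MEK5DD library (squares), with lines at the group means. FAT4, PCDHAC1 and PCDHGA11 are higher in MEK5DD and the other 11 are lower. The groups do not overlap in any of the 14, beside 56.2% of all genes tested. Choosing genes by their calls favours this, so it is no added support.

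The 47 clustered protocadherins lie side by side on chromosome 5 and together gave 3432 and 3475 in WT and 3029 and 3290 in MEK5DD. Of 39 tested, 2 rose and 3 fell, 12.8% beside 14.2% of all genes, so the share called was near the background. In GENCODE v29 all 15 alpha genes share exons of 59 and 89 bases, and 14 of them a last exon of 2718 bases. All 18 gamma genes likewise share exons of 59 and 89 bases, and 17 of them a last exon of 2033 bases. The handling of reads in those exons was not given in the sources used here. Each value may hold reads from constant exons. The 14 beta genes share no exon, but neighbouring genes have similar coding sequence.

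Of 15 alpha genes, all tested, 1 rose and 0 fell, 6.67% beside 14.2% of all genes. The cluster's sum was 1074 and 1071 in WT and 1019 and 1134 in MEK5DD. PCDHAC1, one of the C-type genes at the end of the cluster that lack the diversity of the others, had 90.7 and 99.99 in WT and 145 and 157 in MEK5DD. Its share of the cluster was 8.45% and 9.34% in WT and 14.3% and 13.9% in MEK5DD. It rose 1.58-fold (log2 0.66, SE 0.15, limma adjusted p = 0.0113), which missed the threshold when WT replicate 1 was left out (adjusted p = 0.0630) and with DESeq2 (adjusted p = 0.0581). None of PCDHA1 to PCDHA13 was called, and 9 of these 13 had a negative log2 fold change. PCDHA13 had 7.05 and 5.21 in WT and 14.5 and 22.9 in MEK5DD and missed the threshold (limma adjusted p = 0.0541). PCDHAC2, PCDHA10 and PCDHA11 held the largest shares of the cluster in WT and were not called, with log2 fold changes of 0.16, -0.11 and -0.12.

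In the beta cluster, 0 of 12 tested genes rose and 1 fell, 8.33% beside 14.2% of all genes. There PCDHB2, PCDHB5 and PCDHB15 held most reads. PCDHB2, at chromosome 5, 141094578 to 141098703, had 328 and 326 in WT and 228 and 234 in MEK5DD, with a narrow spread in both. It fell 1.41-fold (log2 -0.50, SE 0.11, limma adjusted p = 0.00837), and its adjusted p became 0.0594 when WT replicate 1 was left out and 0.0550 when WT replicate 2 was. PCDHB5, whose element printed above holds the same beta word, had 283 and 271 in WT and 326 and 365 in MEK5DD. Its groups did not overlap in the opposite direction, and it was not called (log2 0.32, SE 0.11, limma adjusted p = 0.0713). The 50-base words found in most genes of the cluster were set aside, which understates sharing. Of the remaining words of PCDHB5, 11.0% occur in other clustered genes, and 17.1% of those of PCDHB2 do. PCDHB12 was closest to PCDHB5 and PCDHB3 closest to PCDHB2. PCDHB15 was not called (log2 -0.15, SE 0.11). The other tested beta genes had means from 9.30 to 49.5 and none was called.

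The gamma cluster fell in sum from 1214 and 1233 to 977 and 1075. Of its 12 tested genes, 1 rose and 2 fell, 25% beside 14.2% of all genes. PCDHGA10, its most abundant gene, had 317 and 310 in WT and 244 and 246 in MEK5DD. It fell 1.28-fold (log2 -0.36, SE 0.11, limma adjusted p = 0.0423), which missed the threshold when WT replicate 1 (adjusted p = 0.283) or WT replicate 2 (0.222) was left out and with DESeq2 (0.188).

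PCDHGA11, which starts at 141421047 beyond PCDHGA10 and PCDHGB7, had 21.1 and 31.2 in WT and 59.1 and 53.8 in MEK5DD. Both MEK5DD values were above both WT values. It rose 2.15-fold (log2 1.10, SE 0.26, limma adjusted p = 0.0156), the largest called rise of the family, and its adjusted p became 0.0920 when WT replicate 1 was left out and 0.0705 with DESeq2. PCDHGA10 and PCDHGA11 both hold the gamma word, and they share the constant exons.

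PCDHGB4 had 122 and 125 in WT and 70.9 and 84.7 in MEK5DD, with no overlap. It fell 1.58-fold (log2 -0.66, SE 0.17, limma adjusted p = 0.0194), and its adjusted p became 0.0589 when WT replicate 1 was left out, 0.0867 when WT replicate 2 was and 0.101 with DESeq2. PCDHGB5, whose 32 printed bases equal those of PCDHGB4, had 14.1 and 10.4 in WT and 21.8 and 36.9 in MEK5DD. Its log2 fold change was 1.16 (SE 0.37) and was not called (limma adjusted p = 0.0581), and the difference between these genes was not tested. Of the 50-base words of PCDHGB4 outside the constant exons, 58.0% occur in other clustered genes and 47.0% in PCDHGA8, so its value is uncertain. For PCDHGB5 the shares were 19.6% in other clustered genes and 19.1% in PCDHGB4. It held only 10 to 37 recovered reads in a library, so its value is uncertain as well. PCDHGB6 and PCDHGB7 lay lower in both MEK5DD libraries than in either WT library and were not called (log2 -0.40 and -0.32). The C-type genes PCDHGC3 and PCDHGC4 were not called, and 6 gamma genes were below the filter.

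**Figure D4:**
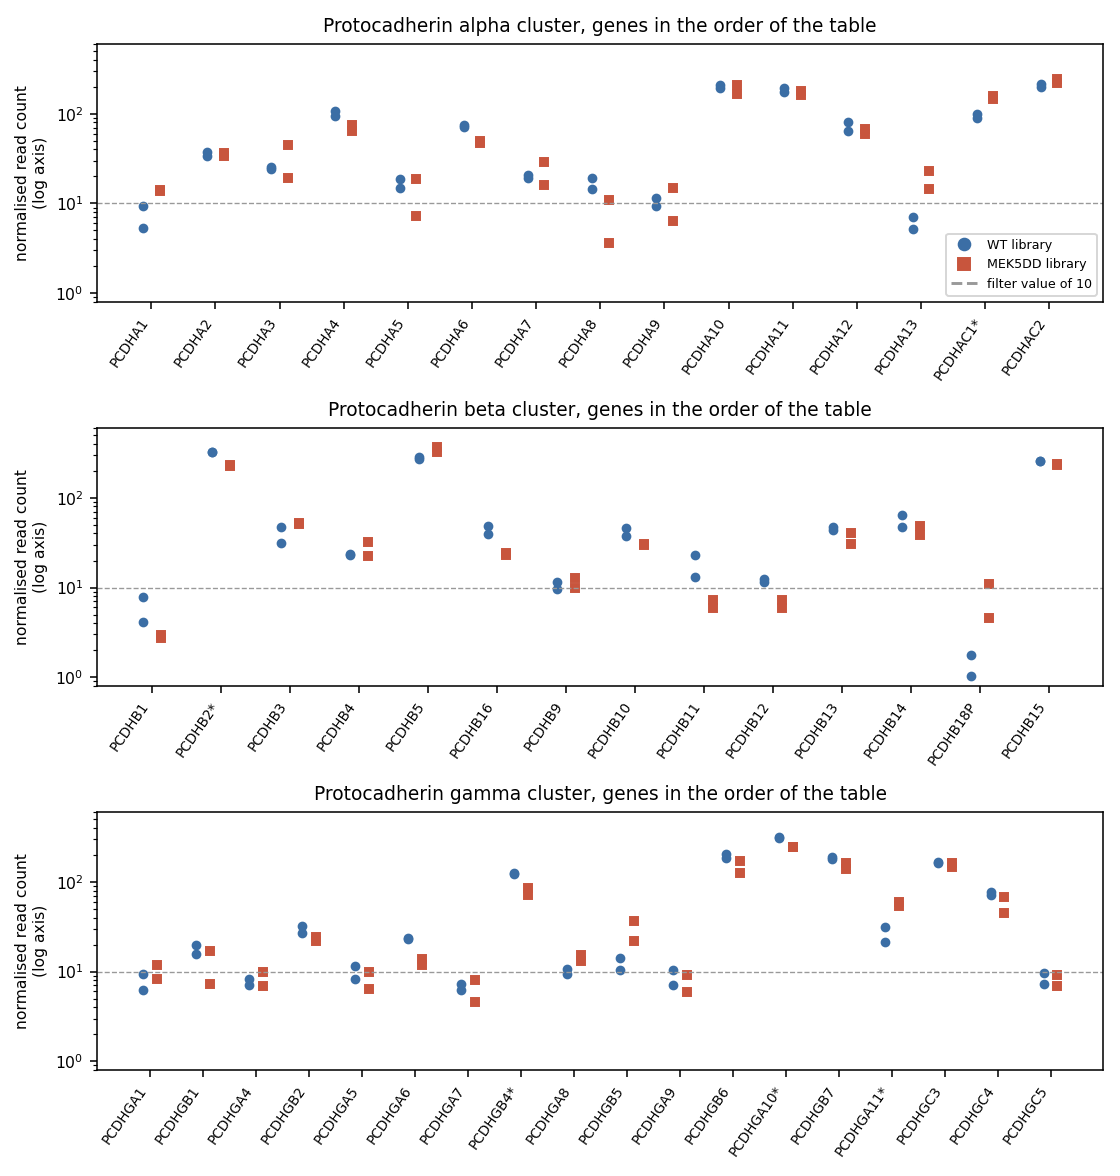
Normalised read count (log axis) of each gene of the alpha, beta and gamma protocadherin clusters in the WT libraries (circles) and MEK5DD libraries (squares), in table order; asterisks mark called genes and the dashed line is the filter value of 10. PCDHGA11 and PCDHAC1 are higher in MEK5DD, and PCDHB2, PCDHGB4 and PCDHGA10 are lower.

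Regulators of clustered protocadherin promoters were listed as 9 genes, of which 0 rose and 2 fell, 22.2% beside 6.47% of all genes called lower. That list was made with earlier results of these data known, so the share is description only. SMC1A, a cohesin subunit, was 1.24-fold lower (limma adjusted p = 0.00466) and SETDB1, a histone methyltransferase, 1.24-fold lower (limma adjusted p = 0.0341). CTCF, which binds the promoters and enhancers of the clusters, was not called (log2 -0.14, 95% interval -0.28 to 0.01).

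Markers of other cell types moved as well. Of 10 neuroectoderm markers, 8 were listed, 5 fell and 1 rose. Their summed value was 8114 and 8310 in WT and 8727 and 8211 in MEK5DD. NES, the 1 rise, held most of that sum, with 6178 and 6346 in WT and 8240 and 7717 in MEK5DD. Among the 5 falls, SIX6 went from 1272 and 1282 in WT to 199 and 186 in MEK5DD. MAP2, listed here but also used as a neuronal marker, fell from 53.7 and 55.2 in WT to 9.09 and 15.0 in MEK5DD. Of 8 neuronal markers, 6 were listed and 2 rose, with a sum of 448 and 400.0 in WT and 1554 and 1596 in MEK5DD. STMN2 made up most of that difference, with 87.2 and 80.2 in WT and 1183 and 1237 in MEK5DD. Of 6 streak and mesoderm markers, 4 were listed and 2 rose, with a sum of 2904 and 2812 in WT and 5600 and 5857 in MEK5DD, of which KDR gave 2757 and 2669 in WT and 5366 and 5608 in MEK5DD. Of 8 fibroblast markers, 5 were listed and 3 rose, with a sum of 7503 and 7410 in WT and 9225 and 8889 in MEK5DD. Endoderm markers gave 1 rise and 1 fall among 3 listed of 6, amnion and trophoblast markers 1 rise and 3 falls among 5 of 6, and endothelial markers 1 rise and 1 fall among 4 of 6. The sums of these 3 lists were 165 and 171, 448 and 485, and 112 and 135 in WT, and 119 and 107, 270 and 285, and 124 and 125 in MEK5DD. The defining markers TBXT, SOX17, FOXA2, CDX2, LUM, DCN, COL3A1 and PECAM1 were not analysed here. Called shares of the tested markers were 85.7% for neuroectoderm, 33.3% for neuron, 50% for streak and mesoderm and 60% for fibroblast. They were 66.7% for endoderm, 100% for amnion and trophoblast and 50% for endothelium, beside 14.2% of all genes tested. The part of these markers in the cadherin results was not tested.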

How the data were processed

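Poly(A) RNA of 2 WT and 2 MEK5DD libraries was sequenced as paired-end reads, per the labels' protocols. The deposited table holds a signal, gene counts that the authors normalised; every value was a whole multiple of its library's smallest value, within 0.001 for 100% of genes, and reads were recovered by dividing by it. The genome build hg38 and the tools featureCounts 1.5.3, DESeq2 1.26.0, Trimmomatic 0.36 and STAR are named in the submitters' processing notes.

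Values were tested as log2(value + 1) by limma 3.58.1 in R 4.3.3, with its mean-variance trend. The 15721 genes tested reached 10 in 2 or more libraries. P-values are two-sided, adjusted over all of them by Benjamini and Hochberg's method. Folds on this scale understate changes of low genes. The fit was tested on simulated data. Alternatives included edgeR 4.0.16, which called 2306 genes, and DESeq2 1.42.0, which called 1358, on recovered reads.

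Gene models and lengths came from GENCODE v29 (GRCh38), in which all 84 members were found. Members and lists were chosen with earlier results of these data known. Values in each library are given for called members and for members with a mean of at least 500; other members named with values were chosen after their values were seen. Partner genes named with values are mainly those called with a log2 change of at least 0.5.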

Additional observations from a re-analysis of the deposited data

How the results depend on the processing

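Of 15721 genes, 2226 were called, 1358 with DESeq2 and 439 when limma ran without its trend; leaving out 1 library gave 1160 to 4629. Of the cadherin family 14 were called (3 higher, 11 lower). Without the trend 2 were called (0 higher, 2 lower), of which only CDH6 is among the 14. With DESeq2 8 were called (1 higher, 7 lower), and with upper-quartile scaling 5 were called higher. Leaving out 1 library gave 8 to 24 called members (0 to 9 higher, 6 to 20 lower). Partner genes called numbered 16, 1 without the trend and 9 to 25 when 1 library was left out. PCDH18, not called, had a log2 fold change of 0.03, which turned to -0.016 without MEK5DD replicate 2 and was 0.077 without MEK5DD replicate 1. All 14 calls were kept with other pseudocounts, no filter, both other scalings and edgeR; a mean of at least 50 left 12 of them in the test, all called. The labels share replicate numbers, and deviations of same-numbered libraries correlated at 0.0469 across genes, and the labels name no shared origin. With a replicate block 3349 genes were called, 26 members (7 higher, 19 lower) among them. Of the members with a mean of at least 500 not called in the main test, the block called CDH3 (limma adjusted p = 0.0160) and CELSR1 (0.0397). Depth limits members with few reads: 28 of the 54 tested members not called had a mean under 50.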
